A study of Mus musculus with 15 samples.

Results

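The chromatin of hepatocytes lacking both PRC2 methyltransferases was compared, domain by domain, with that of wild-type hepatocytes of the same age. The 2 groups were P14 wild type (labelled Wt, postnatal day 14, 3 males and 2 females) and P14 knockout (labelled Alb-Cre;Ezh1-/-;Ezh2f/f, postnatal day 14, 2 males and 3 females), 5 mice each, so 10 of the 15 samples of the series. In the knockout Ezh1 was deleted in the whole animal and Ezh2 only in cells in which the albumin promoter had driven Cre, that is, cells of the hepatocyte lineage. The labels do not say whether the wild-type mice carried Cre or the floxed allele. Cells were obtained by perfusion and digestion of the liver followed by slow centrifugation, which enriches hepatocytes, and the lists compared here hold no expression values with which that identity could be checked. Chromatin was assayed by srHC-seq, which sequences long and short DNA fragments of sonicated, fixed chromatin apart, compact chromatin being the harder to shear. A domain is a stretch of the mm9 genome to which the authors gave the class het, for closed chromatin, euch, for open chromatin, or int, for what lies between. The members were chosen by taking every domain on the 19 autosomes from the list pooled over each group: 121317 wild-type and 111567 knockout domains, 232884 of the 346085 domains deposited for the series. Another list, from 5 wild-type mice of 2 months (2 males and 3 females), shows the class of named regions at that age and serves as another source for the openness of the surroundings in the closing section.

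EZH1 and EZH2 are the alternative catalytic subunits of the Polycomb complex PRC2, which methylates lysine 27 of histone H3 on nucleosomes around silent developmental genes. Chromatin with this mark is bound by PRC1 and tends to be compact, and it is a different compartment from the constitutive heterochromatin that carries methylated lysine 9. In the liver, PRC2 is known for holding fetal and fibrosis genes in check, and for restraining the late hepatocyte genes until hepatocytes mature.

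Each group was 1 map, so no value below could be set against a spread between animals and no p-value was computed. The spread given instead is the range over the 19 autosomes, which lie in the same nuclei and are not replicates. The depth behind the calls is unknown, so the lower number of domains in the knockout cannot be told apart from a difference in depth. The pools also held the sexes in different proportion, as given above, and the part of sex was not tested. Median domain length was 14 kb for het, 4 kb for int and 12 kb for euch in the wild type, and 16, 4 and 14 kb in the knockout, in the same order.

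In the knockout map small domains were lost and gained for both classes. Each domain of 100 kb or more kept at least 1 bin of its class, which its length alone makes likely. Of all 1236182 autosomal bins of 2 kb, 24.6% had another class in the knockout, 12.1% having moved towards euch and 12.5% towards het. A wild-type and a knockout domain of one class were taken as linked where they shared at least 1 bin. By this measure 17887 het domains (43.2% of those of the wild type) and 18767 euch domains (46.3%) had exactly 1 partner that had no other partner. Lost domains, those with no bin of their class left in the knockout, numbered 7493 for het (18.1% of all 41439 tested) and 9495 for euch (23.4% of 40522). New domains, found only in the knockout, numbered 5701 for het (15% of 38014) and 6705 for euch (18.5% of 36222). Lost domains thus outnumbered new ones for both classes, 1.31 times for het and 1.42 times for euch. On single autosomes the ratio ran from 0.961 on chromosome 14 to 2.17 on chromosome 19 for het, and was above 1 on 18 of 19. For euch it ran from 0.880 on chromosome 19 to 1.93 on chromosome 12, and was above 1 on 17 of 19. These shares are over all domains and are themselves the background against which any subset has to be read.

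Lost and new domains were small. Their median length was 8 kb for lost het, lost euch and new het and 6 kb for new euch, and 90% of each were at most 16 kb long. Among wild-type het domains of 2 kb, 54.4% were lost, against 35.4% of those of 8 kb, 18.5% of those from 10 to under 20 kb and 2.58% of those from 20 to under 50 kb. None of the 1157 het domains from 100 to under 200 kb and none of the 463 longer ones was lost. The same held for euch, with 53.7% lost at 2 kb, 5.07% from 20 to under 50 kb, and none of 1470 and 453 domains in the 2 longest classes. By this measure a long domain can hardly be lost, since all of its bins would have to leave the class. Even when moved along their chromosome, as described below, wild-type het domains of 200 kb or more touched 5.57 knockout het domains on average. Those under 10 kb touched 0.522. Long domains were nevertheless seldom matched by a single partner: of wild-type het domains from 100 to under 200 kb, 12.9% had exactly 1, 32.5% were split, 15.8% were joined with others and 38.8% were in mixed groups. For euch domains of that length the shares were 28.6%, 20.1%, 24.1% and 27.2%. New domains were also mostly short. By knockout length, 56.4% of euch domains of 2 kb were new and 1.94% of those from 20 to under 50 kb. For het the share was 40.8% at 2 kb, 41.6% at 4 kb, 29.0% at 8 kb and 2.50% from 20 to under 50 kb.

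A lost domain usually gave way to the opposite class rather than to int. Of lost het domains, 53.8% were wholly euch in the knockout, 12.4% wholly int and the others partly each. Of lost euch domains, 60.7% were wholly het and 9.23% wholly int. The domain that took over a wholly replaced het domain had a median length of 62 kb, and the one that took over a euch domain 60 kb, so these losses were mostly small islands absorbed into a longer domain of the other class. New domains were the mirror image: 51.4% of new het domains lay on sequence that was wholly euch in the wild type, and 60.3% of new euch domains on sequence that was wholly het.

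The longest lost and new domains were named by rank. The longest lost het domain covered 64 kb at chr10:79644001-79708000, and 81.2% of it was euch in the knockout; at 2 months 62.5% of it was euch. A new euch domain of 52 kb, the longest of its kind, lay within the same stretch, at chr10:79652001-79704000. Next among lost het domains were 54 kb at chr5:138462001-138516000, with 70.4% euch in the knockout, and 50 kb at chr12:30942001-30992000, with 76% euch. Both were wholly euch at 2 months. A het domain of 42 kb at chr1:73988001-74030000 was wholly euch in the knockout and at 2 months. The longest lost euch domain covered 72 kb at chr2:57312001-57384000, of which 97.2% was het in the knockout and 94.4% at 2 months. The longest new het domain, 58 kb at chr14:108398001-108456000, was wholly euch in the wild type and 69.0% het at 2 months. The second, 56 kb at chr16:71612001-71668000, was 75% euch in the wild type and 92.9% euch at 2 months, so there the knockout alone was closed among the 3 maps. These regions were picked for a difference between the P14 maps, so the class at 2 months is given only as a description.

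Domains with exactly 1 partner moved their edges little, and about as often outward as inward. Of 35774 het edges, 26.5% did not move, 36.5% moved outward and 37.0% inward in the knockout. Of 37534 euch edges, 27.9% did not move, 37.2% moved outward and 34.9% inward. The median shift, ignoring its sign, was 2 kb for both classes, which is 1 bin, and 53.1% of het and 55.2% of euch edges lay within 2 kb of their wild-type place. Shifts of more than 20 kb were found at 362 het and 319 euch edges, 1.01% and 0.850% of the total. The mean signed shift was 0.0210 kb for het and 0.0732 kb for euch, a small fraction of 1 bin. Outward over inward moves came to 0.987 for het and 1.07 for euch. Chromosome 11 lay at one end for both classes, with 0.637 for het and 1.53 for euch, that is, het edges there moved inward more often and euch edges outward more often. Chromosome 16 lay at the other end, with 1.26 for het and 0.902 for euch.

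**Figure D1:**
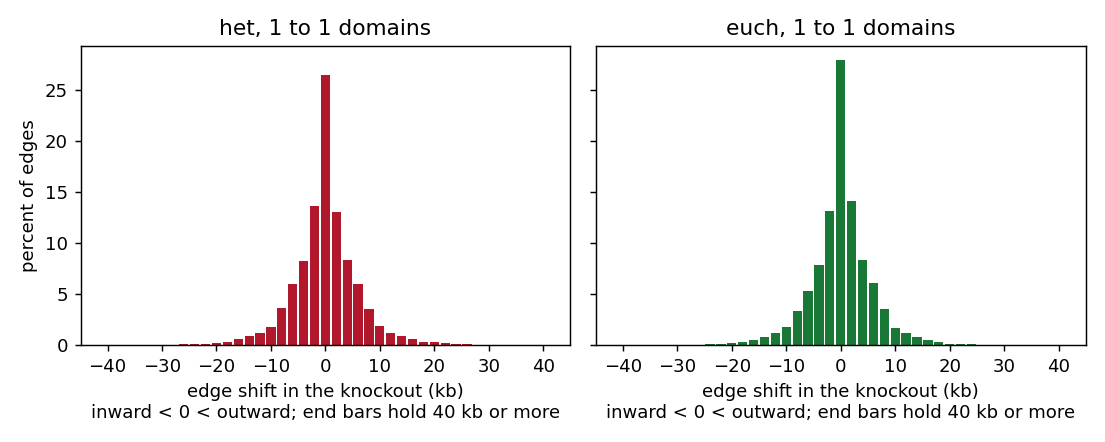
Edge shifts of domains with exactly 1 partner, het on the left and euch on the right: the x axis is the shift in the knockout in kb (outward above 0), the y axis the percent of edges of that class. Both distributions are centred on 0, with 26.5% of het and 27.9% of euch edges unmoved.

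Both edges of a domain kept their place in 7.89% of het and 8.70% of euch domains. A domain grew at both edges in 14.2% of het cases and shrank at both in 13.7%, and it slid, with one edge outward and the other inward, in 27.1%. For euch these shares were 13.7%, 12.9% and 26.3%. An edge that faced int in the wild type moved outward more often than one that faced the opposite class directly: 43.8% against 30.9% for het, and 42.9% against 32.9% for euch. The neighbour was taken from the wild-type map alone, and the grouping by the knockout neighbour was not made. The order by domain length depended on the map that set the length. Grouped by wild-type length, het domains under 10 kb moved outward at 49.9% and inward at 17.3% of edges, and those from 20 to under 50 kb at 28.8% and 49.3%. Grouping by knockout length turned this round, to 17.2% outward and 50.2% inward under 10 kb. With the mean length of both maps the shares were 31.1% and 33.1% under 10 kb and 39.9% and 38.1% from 20 to under 50 kb.

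Single edges moved by up to 66 kb. That largest shift extended a het domain from 20 to 88 kb over chr17:59384001-59450000, a stretch 69.7% euch in the wild type and wholly het at 2 months. A het domain on chromosome 2 grew from 12 to 58 kb over chr2:55536001-55590000, which was 70.4% euch in the wild type; its edge moved 54 kb while the other edge moved inward. In the other direction a het domain of 58 kb shrank to 8 kb at chr16:30702001-30752000, where 96% of the vacated 50 kb was euch in the knockout and 76% at 2 months. A euch domain of 84 kb shrank to 6 kb; of the 50 kb it left at one end, chr16:65374001-65424000, 84% was het in the knockout and all of it at 2 months. Outward moves of euch were shorter, the largest being 46 kb at chr5:75482001-75528000, which was 91.3% het in the wild type and 34.8% het at 2 months.

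Gaps between neighbouring domains of one class were filled in the knockout more often than gaps were opened. Of 41420 gaps between wild-type het domains, 8687 (21%) were called het throughout in the knockout. In the other direction 7072 of the 37995 gaps between knockout het domains (18.6%) had been het throughout in the wild type. Filled gaps were thus 1.23 times as many as opened ones for het. For euch, 6197 of 40503 wild-type gaps (15.3%) were filled and 4662 of 36203 knockout gaps (12.9%) were opened, a ratio of 1.33. By autosome the ratio for het ran from 0.731 on chromosome 19 to 1.49 on chromosome 12, above 1 on 17 of 19. The ratio for euch ran from 1.08 on chromosome 18 to 1.98 on chromosome 19 and was above 1 on all 19.

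Narrow gaps were filled most. Wild-type het gaps of 2 kb were filled in 61.8% of cases, those of 10 kb in 30.1% and those of 20 kb in 8.97%. The corresponding shares of knockout gaps that were opened were 56.4%, 24.7% and 4.79%. For euch the filled shares were 48.9%, 26.8% and 4.37%, and the opened shares 44.9%, 19.3% and 3.33%. At each of the 10 widths up to 20 kb the filled share was the higher, for both classes. A gap that held int alone was filled in 54.7% of 8123 het cases, and one that held euch in 12.7% of 33297. For euch gaps these shares were 43.5% for int alone and 9.20% where het was inside. The widest filled gap was 50 kb for het and 46 kb for euch, and the widest opened one 48 kb for het and 92 kb for euch.

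**Figure D2:**
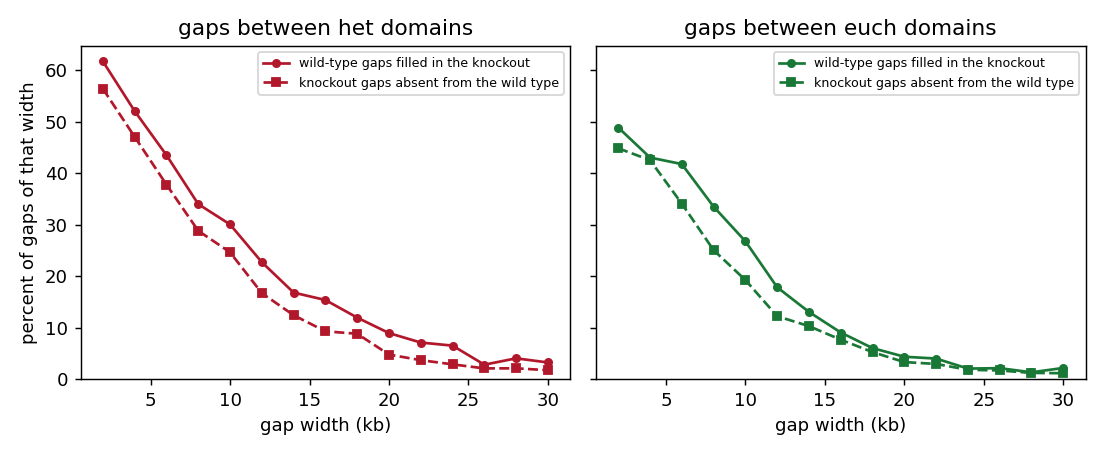
Share of gaps between neighbouring domains that are called throughout as the surrounding class in the other map, by gap width in kb, for het (left) and euch (right). Solid lines are wild-type gaps filled in the knockout and dashed lines knockout gaps that were not there in the wild type; the solid line lies higher at each width up to 20 kb.

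Filled gaps joined domains, and opened gaps split them. Among het domains 3137 knockout domains were each linked with 2 or more wild-type domains that had no other partner, 7680 wild-type domains in all, and 2948 wild-type domains were split into 6741. Among euch domains 2956 joined groups took in 6845 wild-type domains, and 2176 domains were split into 4721. A further 1835 het and 1285 euch groups were mixed, with several domains on both sides. Most groups were simple: 73.9% of joined het and 77.3% of joined euch groups had 2 members, as did 79.3% and 86.1% of split groups. Joined groups outnumbered split ones 1.06 times for het and 1.36 times for euch. For het this differed among autosomes, from 0.469 on chromosome 19 to 1.5 on chromosome 3, and was above 1 on 12 of 19. For euch it was above 1 on all 19, from 1.02 on chromosome 3 to 2.70 on chromosome 19. An excess of lost over new domains, of filled over opened gaps or of joined over split groups goes with fewer knockout domains. None of these can therefore be told apart from a difference in depth.

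The largest joined het group brought 15 wild-type domains into 1 of 654 kb at chr13:65822001-66476000. That stretch was 86.2% het and 3.98% euch in the wild type and wholly het in the knockout and at 2 months. Other large het groups lay at chr12:115642001-117260000, where 13 wild-type domains stood in the place of 1 of 1618 kb, and at chr17:78082001-78426000, where 10 stood in the place of 1 of 344 kb. The latter was 15.1% euch in the wild type, more than the others. Among euch domains the largest group brought together 10 into 1 of 536 kb at chr3:57132001-57668000, a stretch 88.8% euch in the wild type. The second, 8 domains in 474 kb at chr2:103252001-103726000, was 81.9% euch in the wild type and wholly euch at 2 months.

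The most divided wild-type het domains fell into 8 pieces, at 3 places. At chr11:94650001-94850000 a het domain of 200 kb kept only 37% het in the knockout, with 29% euch and the remainder int; at 2 months 84% of it was het. At chr14:56542001-56822000 and chr7:151774001-152080000 the pieces still covered 77.1% and 81.0%. The most divided euch domains fell into 6 pieces, among them 620 kb at chr6:93660001-94280000, 95.2% euch in the knockout, and 124 kb at chr7:49830001-49954000, 64.5% euch. Both of these were wholly euch at 2 months.

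**Figure D3:**
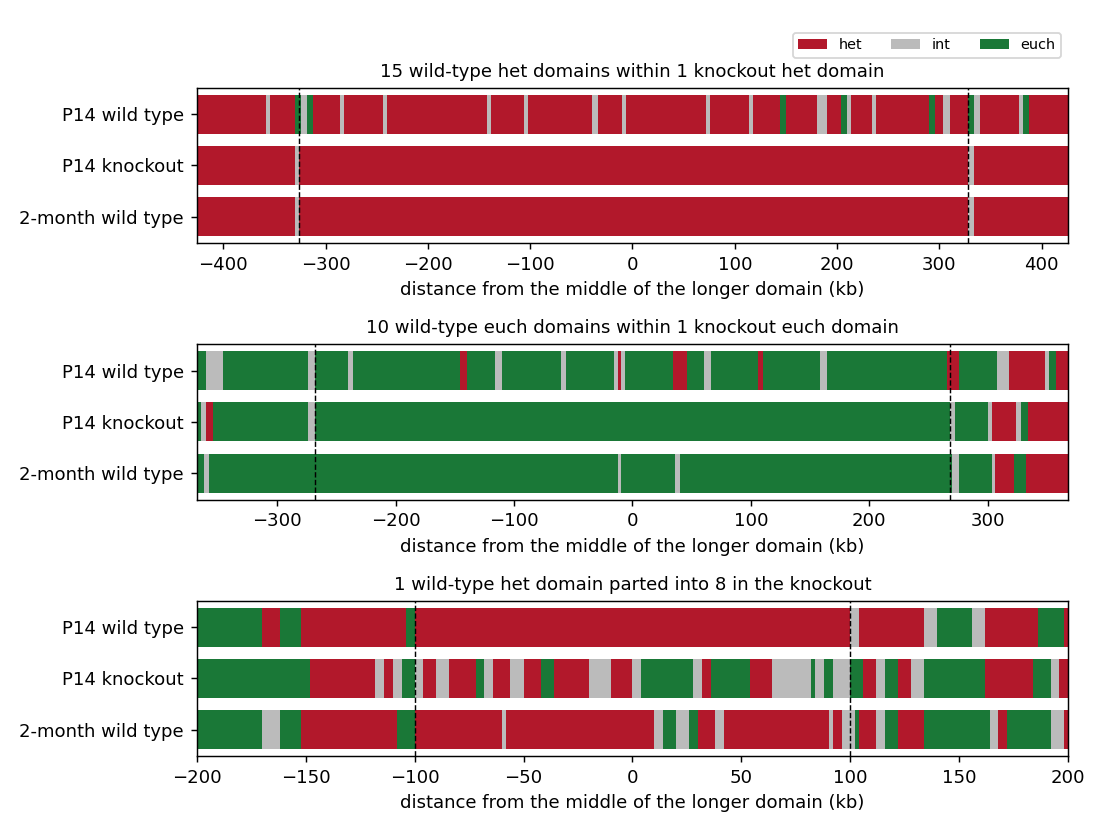
Domain calls around 3 groups in the 3 maps, het red, int grey and euch green, with distance in kb from the middle of the longer domain on the x axis and dashed lines at its ends. From the top: 15 wild-type het domains in the place of 1 knockout domain, 10 wild-type euch domains in the place of 1, and 1 wild-type het domain of 200 kb in 8 pieces in the knockout.

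Long domains touched fewer domains of the other map in place than the level that their length alone gives. To obtain that level, the domains of one map were moved along each chromosome by 100 fixed shifts of at least 5 Mb, with their lengths and order kept, and the domains of the other map that each one touched were counted. Over all lengths, 14.6% of knockout het domains touched 2 or more wild-type het domains, and the rotated domains did so in 14.5% on average (range 14.1 to 14.8). For euch the value was 12.4%, against 13.4% (13.0 to 13.7). Among domains of at least 100 kb the values in place were lower than in any rotation. Of 1817 such knockout het domains, 69.7% touched 2 or more, against 79.4% (77.4 to 81.6) on rotation. Of 2185 such knockout euch domains, 59.8% did, against 78.0% (75.1 to 80.8). They touched 2.70 wild-type het domains and 2.02 wild-type euch domains on average, where rotated ones touched 3.82 and 3.29. In a middle range the order was the reverse: knockout het domains from 50 to under 100 kb touched 2 or more in 55.8%, above the rotations (47.6 to 52.1). Knockout euch domains from 20 to under 50 kb did so in 20.5%, also above (15.8 to 18.1), but those from 50 to under 100 kb in 44.3%, below (47.8 to 52.0). Rotation sets a closed domain on any chromatin, open or closed, so it gives the level for length alone and not for domains of the same surroundings. If the maps were identical, each domain would touch only its own copy in place, but long ones would touch several after rotation. Agreement between the maps thus lowers the values in place, and the difference from rotation does not measure how much joining took place.

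The same count with the maps exchanged concerns splitting, with the same limit. Of 41439 wild-type het domains, 12.5% touched 2 or more knockout domains, against 12.7% (12.3 to 13.0) on rotation, and of 40522 euch domains 9.05% did, against 11.0% (10.6 to 11.4). Among those of at least 100 kb the shares were 59.3% for het, against 74.8% (72.3 to 78.6), and 42.5% for euch, against 72.1% (69.1 to 75.5). Against the mean of the rotations, long domains in place thus differed by -9.65 points (knockout het), -18.2 points (knockout euch), -15.5 points (wild-type het) and -29.6 points (wild-type euch).

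**Figure D4:**
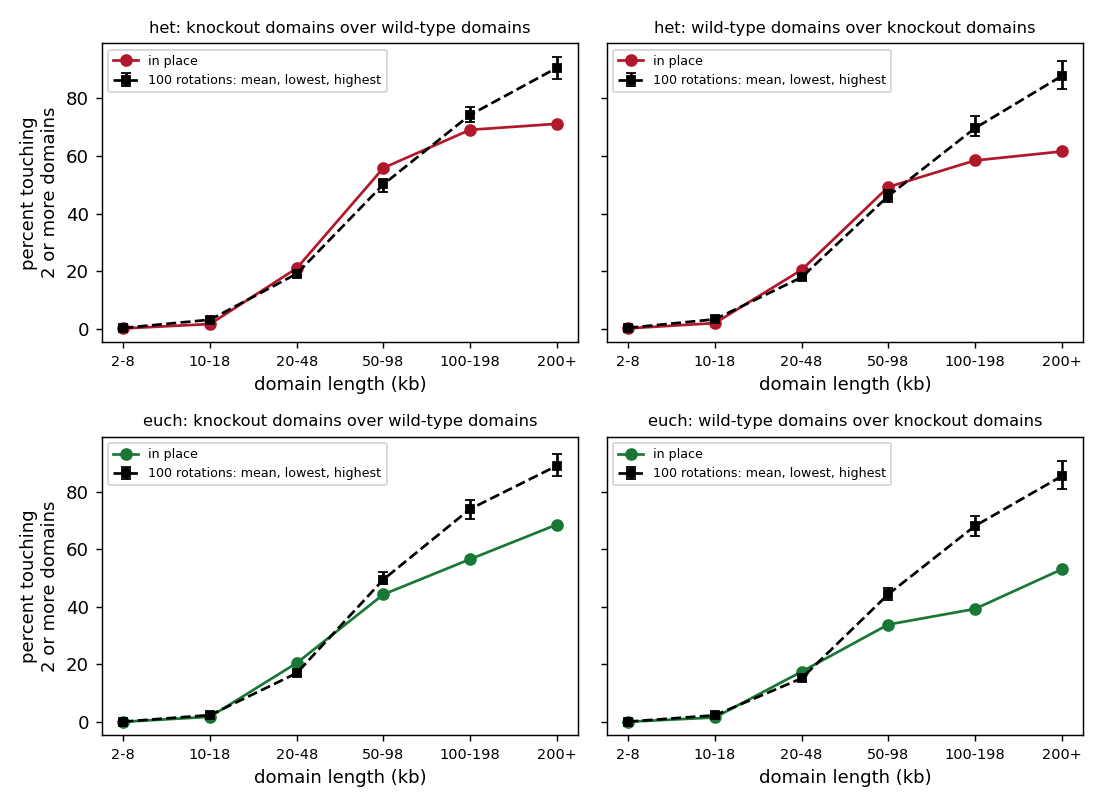
Percent of domains that touch 2 or more domains of their class in the other map (y axis), by their length in kb (x axis), for het (upper row) and euch (lower row), with knockout domains on the left and wild-type domains on the right. Coloured points are the domains in place and black squares the mean of 100 rotations, with bars from the lowest to the highest; from 100 kb on, the domains in place lie below each rotation.

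Each changed bin was sorted once, into the first that applied of lost domains, new domains, filled gaps, opened gaps and moved edges. Lost domains made up 24.6% of changed bins, new domains 15.5%, filled gaps 10.8% and opened gaps 8.47%. The other 40.6%, the remainder, were counted as moved edges. A filled gap that held the opposite class also held a lost domain, and an opened one a new domain, so the order lowers the shares of gaps. Whole filled gaps covered 72.6 Mb for het and 52.6 Mb for euch, against 65.7 Mb counted here. Whole opened gaps covered 50.7 and 37.2 Mb, against 51.5 Mb counted here. Bins of lost domains went towards het in 41840 cases and towards euch in 33100, and those of opened gaps towards euch in 15003 and towards het in 10747. Change was concentrated near edges: of wild-type het bins in the outermost 2 kb of a domain, 40.8% had another class in the knockout, against 13.5% at 10 to 20 kb inside and 1.34% beyond 100 kb. For euch the shares were 44.6%, 12.5% and 1.63%. These shares were not matched for domain length. The deepest bins lie only in long domains, none of which was lost, and the part of length was not tested. Seen from the knockout, het bins beyond 100 kb inside a domain had been another class in the wild type in 4.06% of cases and euch bins in 3.29%, more than in the other direction.

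The int class kept its place least often of the 3. Of wild-type int bins 39.0% were int in the knockout, whereas 80.6% of het and 79.9% of euch bins kept their class. The pooled int share includes int domains of up to 6998 kb. In int domains between het and euch 19.1% of bins stayed int, between euch domains 20.3% and between het domains 38.1%. Most int domains were thin layers of 4 kb between het and euch, 23987 in the wild-type map and 20795 in that of the knockout. Of those in the wild type, 24.4% held any int in the knockout, 36.8% became wholly het and 31.2% wholly euch. An int domain with het on both sides became wholly het in 54.7% of 8123 cases, and one with euch on both sides wholly euch in 43.5% of 7208. In the knockout int between het domains was more frequent, with 9143 domains, and direct borders of het with euch numbered 42624 in the wild type, 35.1% of its borders, against 36924 in the knockout, 33.1%.

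Changes clustered by direction along the chromosomes. They formed 81711 runs of bins that moved one way, 41311 towards euch and 40400 towards het, with a median length of 6 kb and a median of 10 kb between runs. Pairs of changed bins 40 kb apart had the same direction in 60.0% of cases, those 500 kb apart in 57.1%, those 2 Mb apart in 54.0% and those 10 Mb apart in 51.2%, where the totals of both directions alone give 50.0%. At 10 kb the share was 68.2%, and at 2 kb, where both bins often belong to one run, 96.7%. A changed het bin can only move towards euch, and a changed euch bin only towards het. Bins of one of these wild-type classes thus share a direction by definition, and the level from the totals does not allow for this. How much of the clustering follows from the layout of the wild-type classes was not tested. Neighbouring runs 10 kb or more apart had the same direction in 57.0% to 57.2% of pairs, with little difference between gaps of 10 to 20 kb and gaps of 100 kb or more. Those from 2 to under 10 kb apart had it in 46.4%, and runs that touch differ in direction by definition. With these included, the share over all 81692 neighbouring pairs was 48.1%. Change itself also clustered: both bins had changed in 7.70% of pairs 40 kb apart, 6.68% of pairs 500 kb apart and 6.28% of pairs 10 Mb apart, against 6.06% from the total. The latter level does not allow for uneven density of domain edges or for long unchanged stretches, and their part was not tested.

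Some windows of 1 Mb moved almost wholly in one direction. Of 2296 windows with at least 50 changed bins, 235 (10.2%) had at least 80% of them towards euch and 156 (6.79%) at least 80% towards het. The wild-type class of the bins limits the direction in these windows too, and no level that allows for it was computed. Events in which a whole domain was lost or appeared were counted as opening (het lost, euch new; 14198) or closing (euch lost, het new; 15196). Their variance over windows was 1.81 times the mean for opening and 3.73 times the mean for closing events, where evenly scattered independent events would give 1. That level does not allow for windows that hold unlike numbers of small domains, and the part of domain density was not tested. The share of bins changed per window ranged from 10.2% at the 5th to 41.6% at the 95th percentile, with a median of 24.8%.

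The windows with the greatest excess of one kind of event, picked after their values had been seen, show both patterns. At chr14:56000001-57000000 there were 18 opening and 2 closing events, and 284 kb moved towards euch against 32 kb towards het. At chr11:94000001-95000000 there were 17 and 2, with 320 and 16 kb; this window holds the divided het domain of 200 kb described above. On the closing side, chr12:98000001-99000000 had 3 opening and 22 closing events, with 42 kb towards euch and 438 kb towards het. At chr5:11000001-12000000 there were 2 and 22 events, and at chr6:69000001-70000000 4 and 24. The most changed window was chr6:61000001-62000000, in which 56.2% of bins had another class. By contrast, no bin changed at chr14:5000001-6000000 or at chr7:21000001-22000000, where the euch share minus the het share was -0.902 and -0.952 in both maps and the rest was int.

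The longest series of neighbouring runs with one direction, by the ranking rule, held 31 runs towards euch and 33 towards het. The former spanned chr11:94106001-94936000, with 306 kb moved; het fell there from 60.7% to 27.0% of bases and euch rose from 35.7% to 55.9%. At 2 months het covered 42.2% and euch 50.6%. A second series of 26 runs at chr8:91348001-92376000 moved 330 kb, and euch rose from 48.2% to 73.0%. The longest towards het lay at chr13:65352001-66956000, around the largest joined het group, where het rose from 84.8% to 96.3%. At chr5:15786001-16418000 a series of 22 runs took euch from 63.9% to 32.0%; at 2 months euch covered 9.49%. There were 172 series of 10 or more runs towards euch and 117 towards het.

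The direction of change varied with the surroundings. Their openness was taken from the 250 kb on each side of a place, apart from the nearest 10 kb, by subtracting the share of bases in het from that in euch and averaging both P14 maps. In the most closed surroundings (score below -0.5), 3020 euch domains were lost and 1232 were new, a ratio of 2.45, and 56.1% of the wild-type euch domains there were lost. In the most open surroundings (0.5 or above), 235 were lost and 423 new, a ratio of 0.556, and 3.95% of wild-type euch domains were lost. The shares lost were not matched for domain length, with which loss fell as given above, so the part of length was not tested. Het domains showed the opposite order. In the most open surroundings 2007 were lost and 1114 new, a ratio of 1.80, and in the most closed ones 199 were lost and 298 new, a ratio of 0.668. Between these ends the ratios changed step by step over the 5 classes of surroundings, and near balance they were 1.17 for het and 1.06 for euch. The excess of lost over new was present on all 19 autosomes, for euch in the most closed surroundings (1.18 on chromosome 19 to 4.60 on chromosome 10) and for het in the most open ones (1.02 on chromosome 14 to 4.81 on chromosome 19). In bases, the net move was -6.10 points of the most closed and 4.44 points of the most open surroundings. Thus more euch islands were lost than were new in closed stretches, and more het islands were lost than were new in open stretches. Like the lower number of knockout domains, this cannot be told apart from a difference in depth.

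**Figure D5:**
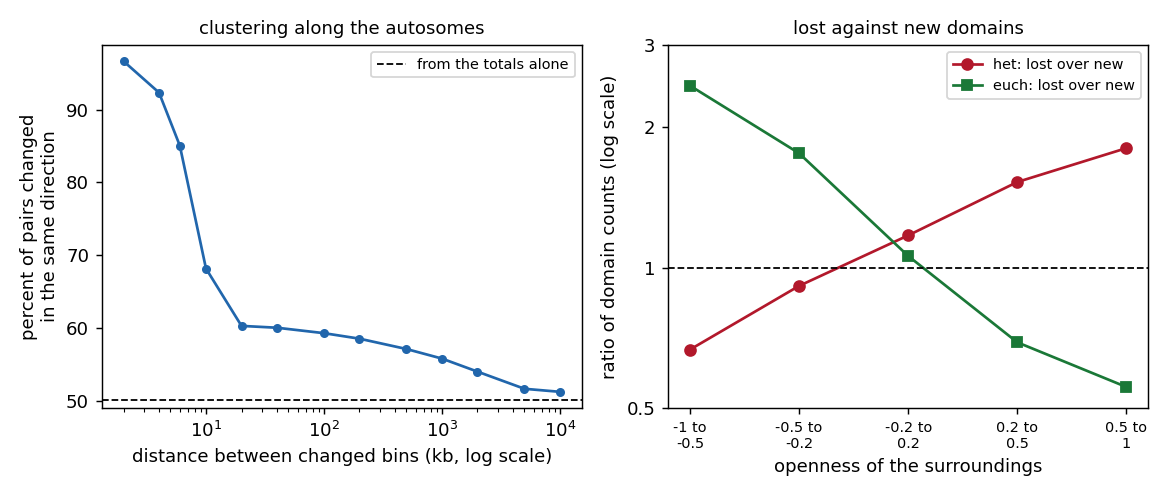
Left, percent of pairs of changed bins that changed in the same direction, by their distance in kb on a log axis. The dashed level from the totals does not allow for the layout of the wild-type classes. Right, number of lost over new domains on a log axis for het (red circles) and euch (green squares) by the openness of the surroundings, from closed (-1) to open (1); the euch ratio falls from 2.45 to 0.556 and the het ratio rises from 0.668 to 1.80.

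Chromosomes 19 and 11 stood at the opening end and chromosome 12 at the closing end. Opening over closing events came to 1.56 on chromosome 19, 1.41 on chromosome 11 and 0.751 on chromosome 12, with a median of 0.924 over the 19 autosomes and a value above 1 on 7. On chromosome 19, 239 het domains were lost and 110 were new, and 162 euch domains were lost and 184 were new. The share of bins changed was lowest on chromosome 7, at 18.8%, and highest on chromosome 3, at 26.7%. By distance from the far chromosome end, opening over closing events fell from 1.33 in the last 5 Mb to 1.21 at 5 to 20 Mb, 1.02 at 20 to 50 Mb and 0.845 beyond 50 Mb.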

How the data were processed

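Hepatocyte DNA of 15 mice was sequenced after srHC-seq. The submitters' processing notes name STAR 2.4.2a, bcl2fastq 2.19.0.316 and bedtools, with mm9 as the build. How domains were called, and with which thresholds, is not given in the sources used here. The deposited lists hold intervals with a class and a score that is 0 throughout, so they carry no depth. Each list was read as a pool of its group, since the sample descriptions name it under each animal. Domain edges away from chromosome ends lay on a 2 kb grid, with 1 exception in the knockout, and every autosomal bin had 1 class in each map.

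Lists were read as 2 kb bins in pandas 2.3.3 and NumPy 2.4.6 under Python 3.11.15. SciPy 1.17.1 gave the binomial intervals and Matplotlib 3.10.9 the plots. Coordinates are 1-based. Linking, edges, gaps, rotations and windows were as described with each result. Linking, edges, gaps and the count of domains touched in place were checked on made maps with known edits. Rotations and windows were not checked in this way. The 5 top-ranked regions of each kind were eligible to be named: longest lost and new domains, largest joined and split groups, largest edge shifts and longest series. The comparison and its measures were chosen with earlier results of these data known. Genes and sequences are not reported, because the annotation at hand is of another build; the gene and marker lists drawn up for it were not used. Alternatives were adding chromosome X, leaving out int runs of 100 kb or more shared by both P14 maps, absorbing domains under 6 kb, stricter links, longer domains or runs, and leaving out each autosome.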

Additional observations from a re-analysis of the deposited data

How the results depend on the processing

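No paired analysis was possible because each deposited list is a pool of the 5 animals of a group, and for the same reason no animal could be left out. For 28 values, 642 alternatives were computed: 621 stayed within 1.5 times (counts) or the margin of the 95% binomial interval (shares), and 21 moved; most of these values are counts, which have no sign to reverse. Leaving out each autosome made up 532 of the alternatives and moved none of the values. Since 1 autosome holds a small part of the genome, a count could hardly leave the margin of 1.5 times in this way. Leaving out shared int runs cannot change the counts of fates, edge moves and filled or opened gaps. The number that stayed within the margin is therefore no measure of how firm the results are. The excess, in points, of long domains touching 2 or more over their rotations stayed negative, which agreement of the maps alone would also give. Without shared int runs it was -12.1 for knockout het, -20.8 for knockout euch and -32.0 for wild-type euch domains. With small domains absorbed these were -7.15, -13.0 and -23.2. Counting only domains lying wholly inside, it was -17.5 and -24.5 for knockout and wild-type het and -27.8 and -39.6 for knockout and wild-type euch. Links of at least 50% of the shorter domain left 488 mixed het and 423 mixed euch groups, because fewer links join them. Edges of wild-type domains of at least 20 kb moved outward in 3557 and inward in 5954 het cases, and in 3927 and 5551 euch cases, so the balance of euch edges turned inward; this alternative selects by wild-type length. With runs of at least 6 kb, 242 windows were mostly towards het and 346 mostly towards euch; the cause was not tested. Lost euch made up 71.0% of lost and new euch domains in the most closed surroundings and lost het 64.3% in the most open ones. With surroundings of 1 Mb on each side these shares were 73.5% and 61.1%, and with surroundings taken from the 2-month map 74.4% and 66.7%; both alternatives were chosen after seeing the data, as was every alternative for the surroundings. Depth is unknown.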
